A study of Mus musculus with 3 samples.

Results

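The interferon regulatory factors (IRFs) of mouse CD4+ T cells were followed across 3 single-cell RNA libraries: unstimulated wild-type (WT) cells, stimulated WT cells and stimulated cells lacking IFT20, a protein of intraflagellar transport. The members were taken by symbol as Irf1, Irf2, Irf3, Irf4, Irf5, Irf7, Irf8 and Irf9, which are 8 of the 31053 genes in the feature table, and all 8 held at least 10 unique molecular identifiers (UMIs) in both comparisons. The cells were splenocytes of young male C57BL/6 mice, enriched for naive CD4+ T cells and sorted as 7-AAD-CD3+CD4+, with 1 library per group. The WT cells came from Ift20 f/f mice without Cre and were either kept in DPBS (0 h) or given anti-CD3 and anti-CD28 antibodies, each at 1 μg/mL, for 24 h. The IFT20-KO cells came from Ift20 f/f CD4 cre mice and received the same stimulation for 24 h. The floxed Ift20 alleles were therefore shared by all groups, Cre was present in the IFT20-KO group only, and the Cd4-driven Cre acts in T cell development before these cells leave the thymus. How many mice went into each library was not given in the sources used here.

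IRFs share a DNA-binding domain that recognises GAAA-type repeats, and they differ in how they are switched on. IRF3, IRF5 and IRF7 are activated by phosphorylation downstream of sensors of foreign nucleic acid, IRF9 joins STAT proteins in the complex that answers type I interferon, and IRF1 and IRF2 act as an activator and its antagonist on partly shared elements. In T cells IRF4 is known as a factor made on antigen receptor signalling that binds with BATF and JUN proteins, and IRF8 is its closest relative.

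The kept cells (over 200 genes, under 15% mitochondrial UMIs) numbered 8031, 9903 and 13920 in these 3 libraries (in the order unstimulated WT, stimulated WT, IFT20-KO, kept throughout), with 37133949, 116979076 and 106435143 UMIs and medians of 4627, 12167 and 5014.5 UMIs per cell. The lowest UMI count of any deposited barcode was 500, 709 and 1493, and the cells under 4000 UMIs made up 33.1%, 23.2% and 47.8% of the libraries, so depth and group moved together. Between 114 and 197 barcodes were shared by a pair of libraries, at most 1.99% of the smaller one. All CD4 T cell markers examined were detected in each library. Of the dendritic and myeloid cell markers, Siglech, Clec9a, Cd14, S100a8 and C1qa were at 0 UMIs in all 3. Others were detected, among them Fcgr3 (125, 14 and 8 UMIs) and H2-Aa (77, 42 and 19 UMIs, with 73 of the 77 in 1 cell). Ift20 was at 64.4, 76.0 and 6.60 counts per 1000000 UMIs (CPM), a log2 ratio of −3.52 between IFT20-KO and stimulated WT cells; whether these UMIs lie outside the deleted part is not given. With 1 library per group there is no test of any difference, and the 95% intervals given for CPM, ratios and shares cover counting error only.

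Promoter sequences are shown for 4 members whose levels carried the contrasts described below: Irf4 and Irf8, which were low before stimulation, and Irf1 and Irf2, which were detected in many unstimulated cells. Each run is the 250 bases before the RefSeq start (GRCm38.p6), 5′ to 3′, in lower case, and capitals mark matches to any of 4 motifs searched on both strands. These were the paired IRF element GAAANNGAA, the STAT element TTCNNNGAA (GAS), the AP-1 element TGANTCA and the NF-kappaB element, which 7.13%, 7.02%, 6.75% and 7.25% of 32841 such windows of all genes hold. The windows lie at chr13:30748983-30749232 for Irf4, chr8:120736108-120736357 for Irf8, chr11:53769764-53770013 for Irf1 and chr8:46739495-46739744 for Irf2, all on the plus strand.
Irf4: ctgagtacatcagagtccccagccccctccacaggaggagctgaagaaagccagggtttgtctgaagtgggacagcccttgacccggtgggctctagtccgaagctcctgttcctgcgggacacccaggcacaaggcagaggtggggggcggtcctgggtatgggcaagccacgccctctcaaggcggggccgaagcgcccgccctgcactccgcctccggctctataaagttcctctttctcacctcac
Irf8: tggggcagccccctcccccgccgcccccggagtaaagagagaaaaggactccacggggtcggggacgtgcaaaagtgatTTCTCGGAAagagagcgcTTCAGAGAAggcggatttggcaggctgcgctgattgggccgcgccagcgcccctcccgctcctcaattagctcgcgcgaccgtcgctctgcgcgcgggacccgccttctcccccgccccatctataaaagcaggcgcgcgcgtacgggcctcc
Irf1: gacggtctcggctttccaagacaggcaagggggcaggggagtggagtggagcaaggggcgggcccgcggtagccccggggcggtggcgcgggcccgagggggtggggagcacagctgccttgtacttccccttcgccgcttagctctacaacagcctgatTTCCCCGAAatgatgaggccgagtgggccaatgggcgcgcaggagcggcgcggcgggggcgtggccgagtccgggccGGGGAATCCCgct
Irf2: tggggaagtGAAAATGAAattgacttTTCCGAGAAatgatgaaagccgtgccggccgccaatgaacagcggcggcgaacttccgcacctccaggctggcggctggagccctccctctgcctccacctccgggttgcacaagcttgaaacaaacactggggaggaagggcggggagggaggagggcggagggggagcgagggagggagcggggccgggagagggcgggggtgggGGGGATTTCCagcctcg

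The Irf4 window held none of the 4 motifs. Irf8 held a pair of GAS matches at −171 to −163 and −153 to −145 from the start. Irf1 had a GAS match at −90 to −82 and an NF-kappaB match at −13 to −4. Irf2 was the one member with a paired IRF element, at −241 to −233, beside a GAS match at −224 to −216 and an NF-kappaB match at −17 to −8. The windows of Irf3, Irf5, Irf7 and Irf9, and the second windows of Irf1 and Irf8, held no match. A match describes letters in the window and says nothing of binding in these cells.

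Stimulation for 24 h separated the members into a pair that rose, a set that fell and others whose difference stayed under 2-fold. Irf4 and Irf8 rose by over 1 on the log2 scale, 2 of the 8 members against 19.3% of 13297 genes tested. Irf2, Irf7 and Irf9 fell by over 1, 3 of the 8 against 23% of genes. Irf1, Irf3 and Irf5 did not pass 2-fold. The median member ratio was −0.72, and the median over all genes was −0.089.

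**Figure D1:**
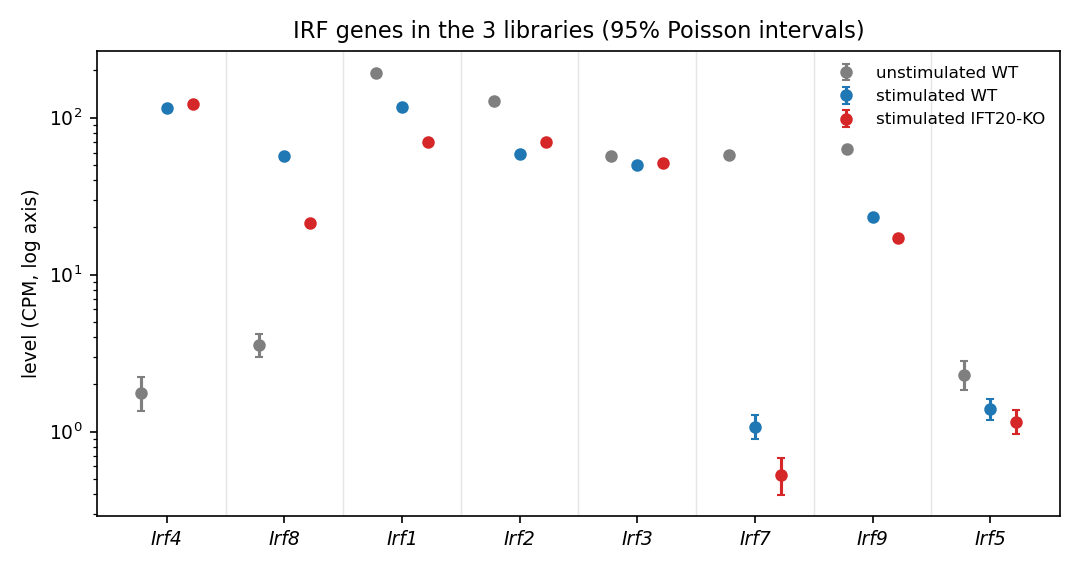
Level of each interferon regulatory factor in the 3 libraries, as CPM on a log axis, with 95% exact Poisson intervals (counting error, 1 library per group). Irf4 and Irf8 lie under 4 CPM in unstimulated cells and above 20 CPM in both stimulated libraries, while Irf7 goes from 58.2 CPM to about 1 or less; levels of different genes are not comparable because transcript length and read position differ.

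Irf4 lies at chr13:30749226-30766976 (plus strand, GRCm38, GENCODE M21) and overlaps no other annotated gene. Its level was 1.75 CPM (95% interval 1.35 to 2.23) in unstimulated WT, 115 (113 to 117) in stimulated WT and 122 (120 to 124) in IFT20-KO cells. The unstimulated library stood apart from both stimulated ones, whose intervals did not overlap but whose levels were close. The log2 ratio of stimulated over unstimulated WT was 6.04 (5.69 to 6.41). Irf4 UMIs were found in 0.610% of unstimulated cells, 55.0% of stimulated WT and 47.1% of IFT20-KO cells, and at an equal 1400 UMIs per cell the shares were 0.207%, 15.1% and 17.0%. The unthinned order of the stimulated libraries thus turned once depth was equal. A single cell held up to 5, 22 and 23 Irf4 UMIs.

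Irf8, at chr8:120736358-120756694 on the plus strand, lies wholly inside the longer same-strand gene Gm20388, with which it shares no exon base and which had 0 UMIs in all 3 libraries. Irf8 was at 3.55 CPM (2.97 to 4.22) before stimulation, 56.7 (55.4 to 58.1) after it in WT and 21.4 (20.5 to 22.3) in IFT20-KO cells. No intervals overlapped, and the IFT20-KO level lay between the other two. The log2 ratio with stimulation was 4.00 (3.75 to 4.26). Cells with an Irf8 UMI made up 1.22%, 27.3% and 9.72%, or 0.387%, 6.69% and 2.67% at 1400 UMIs.

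Free RNA can put UMIs of a gene into cells that do not make it, so the B cell receptor genes Cd79a and Cd79b were read in the same way. Cd79a was found in 0.374%, 0.333% and 0.187% of cells of the 3 libraries and Cd79b in 1.05%, 0.616% and 0.833%, at the median depths given above. The unstimulated share for Irf4 (0.610%) lay between those of Cd79a and Cd79b, so no expression is read from it. The unstimulated Irf8 share (1.22%) had an interval overlapping that of Cd79b.

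Irf1 and Irf2, the activator and its antagonist, were detected before stimulation in many cells (50.7% and 43.3%). Irf1 (chr11:53770014-53778374, plus strand) was at 191 CPM (187 to 196), 117 (115 to 119) and 69.7 (68.2 to 71.3), a descending series without overlap of intervals. Irf2 (chr8:46739732-46847458, plus strand) was at 129 (125 to 132), 59.0 (57.6 to 60.4) and 69.5 (68.0 to 71.1), so that the 2 stimulated libraries lay together below the unstimulated one. With stimulation the log2 ratios were −0.71 (−0.76 to −0.67) for Irf1 and −1.13 (−1.18 to −1.07) for Irf2.

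Both values depended on the depth of the cells. Among cells under 4000 UMIs, Irf1 was at 241 CPM in unstimulated and 286 in stimulated WT cells. Between 4000 and 8000 UMIs it was at 182 and 224 CPM. These log2 ratios of 0.25 and 0.30 are in the opposite direction to the pooled value. Between 8000 and 16000 UMIs the ratio was −0.51. The 3 windows held 2657, 4978 and 382 unstimulated cells, and 2299, 546 and 4466 stimulated WT cells. From 4000 to 8000 UMIs lay 62.0% of unstimulated but 5.51% of stimulated WT cells. From 8000 to 16000 UMIs lay 4.76% and 45.1%, so each of these windows sets a small part of 1 library against many cells of the other. For Irf2 the ratios in these 3 windows were −0.44, −0.21 and −0.77, all lower but none past 2-fold. The medians of all genes with at least 10 UMIs in those windows were 0.36, −0.032 and −0.18. The Irf1 ratio was thus below the median gene under 4000 UMIs and above it from 4000 to 8000 UMIs. The Irf2 ratio was also under 2-fold at 1400 UMIs per cell (−0.85) and with median-ratio scaling (−0.96). Counted as UMIs per cell, Irf1 went from 88.4 to 138 UMIs per 100 cells and Irf2 was higher in the stimulated library (log2 ratio 0.23). The median of all genes was itself 1.26 higher on that scale, and relative to it Irf2 stood at −1.04. That value equals the one by CPM by construction, since both scales differ only by a constant factor per library. The share of cells with Irf1 was 50.7% and 56.7% unthinned, and 22.4% and 17.7% at 1400 UMIs.

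Irf7, Irf9 and Irf3 belong to the antiviral branch. Irf7 (chr7:141262706-141266481, minus strand) fell from 58.2 CPM (55.8 to 60.7) in unstimulated WT to 1.08 (0.897 to 1.28) in stimulated WT cells, with 0.526 (0.397 to 0.683) in IFT20-KO cells. The log2 ratio with stimulation was −5.76 (−6.03 to −5.50), from 2161 UMIs to 126 in a library with more total UMIs. At like depth it was −4.69 in cells under 4000 UMIs, −3.06 (−3.71 to −2.48) from 4000 to 8000 and −5.24 from 8000 to 16000, lower in each window but by differing amounts. Cells with an Irf7 UMI went from 20.3% to 1.11% and were 0.395% in IFT20-KO, the last between the Cd79a and Cd79b shares of that library.

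Irf9 (chr14:55603571-55610030, plus strand) was at 62.9 CPM (60.4 to 65.5), 23.4 (22.5 to 24.3) and 17.2 (16.4 to 18.0), lower in each successive library. Its log2 ratio with stimulation was −1.43 (−1.51 to −1.35), and −0.98, −0.45 and −1.12 in cells under 4000, of 4000 to 8000 and of 8000 to 16000 UMIs. Irf3 (chr7:44997648-45002848, plus strand), which is held ready as protein and switched on by phosphorylation, was at 57.2 (54.8 to 59.7), 50.2 (48.9 to 51.5) and 51.2 (49.8 to 52.5) CPM. Its log2 ratio with stimulation was −0.19 (−0.26 to −0.12), and its stimulated libraries had overlapping intervals. The share of cells with Irf3 at 1400 UMIs was 7.63%, 7.18% and 7.88%.

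Irf5 (chr6:29526625-29541871, plus strand), best known in myeloid and B cells, was low in all 3 libraries at 2.29 CPM (1.83 to 2.83), 1.38 (1.18 to 1.62) and 1.16 (0.960 to 1.38). Cells with an Irf5 UMI were 0.996%, 1.36% and 0.805%, of the same order as Cd79b. Of its exon bases, 14.1% are shared with Tnpo3 on the opposite strand, and the strand setting of the counting was not given. Smaller exon overlaps on the opposite strand exist for Irf1 (135 bases, Gm17334), Irf3 (88 bases, Bcl2l12) and Irf7 (45 bases, Phrf1). Whether reads from these stretches were told apart depends on that setting. Irf9 shares 123 bases with Rnf31 on its own strand, where reads cannot be told apart by strand.

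**Figure D2:**
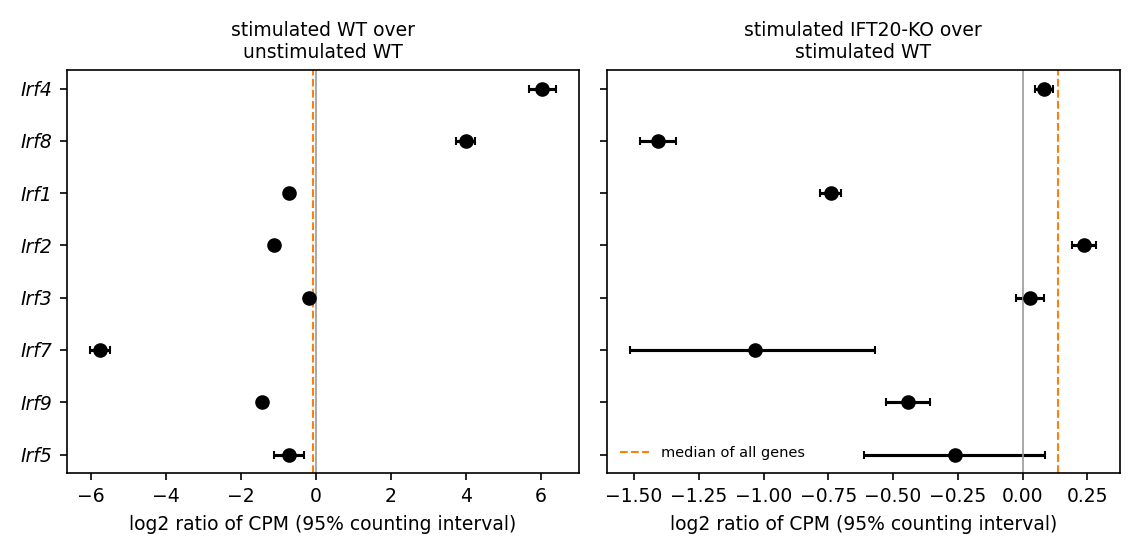
Log2 ratio of each member between stimulated and unstimulated WT cells and between IFT20-KO and stimulated WT cells, with 95% intervals of counting error; the orange dashed line is the median of all genes and the grey line marks 0. The ratios run from −5.76 (Irf7) to 6.04 (Irf4) with stimulation and from −1.41 (Irf8) to 0.24 (Irf2) in IFT20-KO cells.

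The second comparison asks what differed in stimulated cells lacking IFT20, and it shares the stimulated WT library with the first. Irf8, Irf7, Irf1 and Irf9 fell by over 0.3 on the log2 scale, 4 of the 8 members against 6.66% of 13504 genes tested. None of the 8 rose by that much, against 32.1% of genes. Of all genes past that fold 82.8% were higher by CPM, a share of 56.1% with median-ratio scaling and 6.46% per cell. With median-ratio scaling Irf1, Irf7, Irf8 and Irf9 stayed lower and Irf5 joined them (−0.43), beside 14.8% of all genes lower. The median member ratio was −0.35, with an all-gene median of 0.14.

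Irf8 was lower by the most, from 56.7 to 21.4 CPM with a log2 ratio of −1.41 (−1.48 to −1.34). Irf7 had a ratio of −1.03 (−1.51 to −0.57) on 126 and 56 UMIs. Irf1 went from 117 to 69.7 CPM (−0.74, −0.78 to −0.70) and Irf9 from 23.4 to 17.2 CPM (−0.44, −0.53 to −0.36). These 4 members are an activation-linked factor, the factor that amplifies type I interferon, an activator of interferon-gamma target genes and the DNA-binding part of the type I interferon complex. Irf4, the other member that rose with stimulation, was at 0.084 (0.049 to 0.12), and at −0.052 once the median gene is subtracted. Irf2 was at 0.24 (0.19 to 0.29), Irf3 at 0.028 (−0.025 to 0.082) and Irf5 at −0.26 (−0.61 to 0.086), and the last 2 intervals included 0. With the median gene subtracted, Irf2 was at 0.10, Irf3 at −0.11 and Irf5 at −0.40.

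Set against unstimulated WT cells, the IFT20-KO cells had Irf4 higher by 6.12 on the log2 scale and Irf8 by 2.59, a 6.02-fold difference. On that scale Irf7 was at −6.79, Irf9 at −1.87 and Irf1 at −1.46. Irf8 in the IFT20-KO library was thus above the unstimulated WT level and under that of stimulated WT cells. No unstimulated IFT20-KO library was measured, so induction within that genotype was not tested.

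Because the IFT20-KO library was shallower, the ratios were also taken between cells of like depth. Irf8 had ratios of −1.44, −1.23, −1.40 and −1.35 in cells under 4000, of 4000 to 8000, of 8000 to 16000 and of at least 16000 UMIs. The corresponding Irf1 ratios were −1.17, −0.99, −1.06 and −0.94, larger in size than the pooled −0.74. In each window Irf1 and Irf8 were lower in the IFT20-KO cells.

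For Irf9 the ratios in the 4 windows were −0.60, −0.82, −0.66 and −0.52. Irf7 was at −2.17, −1.86, −1.46 and −0.51 (−1.88 to 0.70), with the last interval including 0. Irf4 was at −0.13, 0.19, 0.060 and −0.043, without one direction, and Irf2 ran from −0.12 to 0.12. The median over genes with at least 10 UMIs in a window lay between −0.058 and 0.17.

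**Figure D3:**
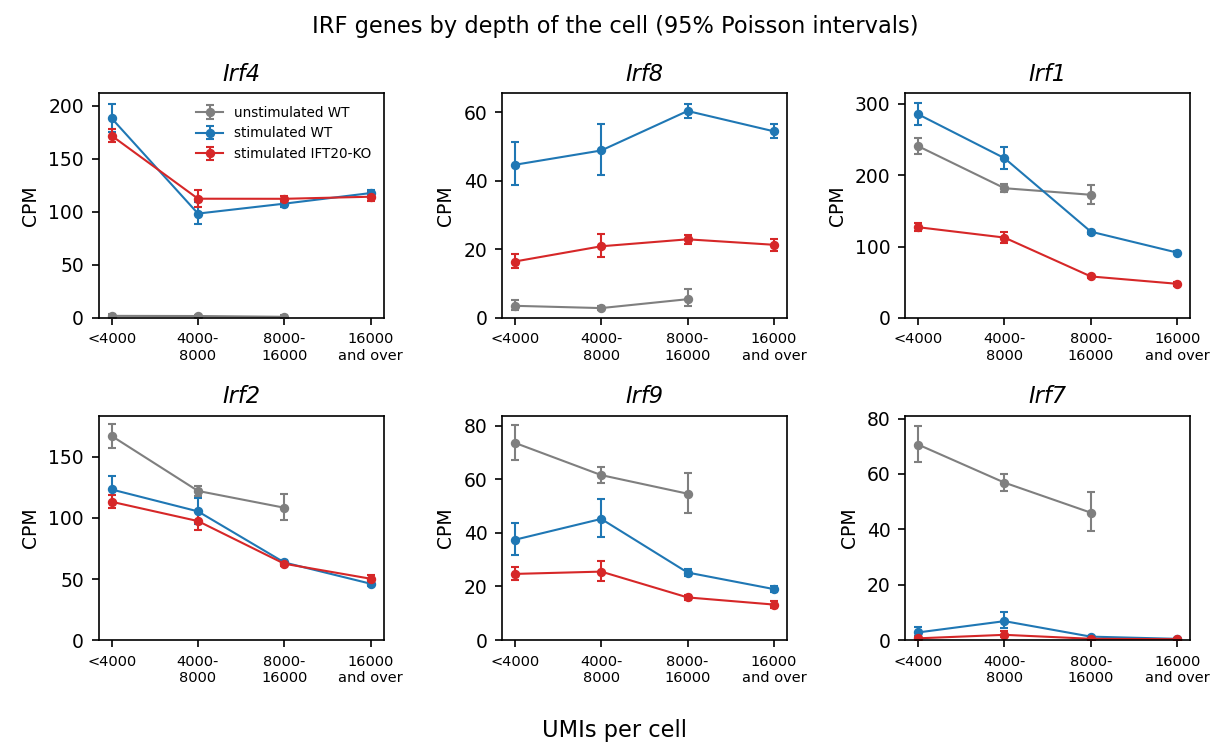
CPM of Irf4, Irf8, Irf1, Irf2, Irf9 and Irf7 (vertical axes) in cells grouped by UMIs per cell (horizontal axes), for the 3 libraries, with 95% exact Poisson intervals; the unstimulated cells of at least 16000 UMIs, only 14, are not drawn. Irf1 declines with depth in every library and is lower in IFT20-KO than in stimulated WT cells at each depth, and Irf8 shows the same gap between the stimulated libraries.

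The level of a gene in a library can reflect how many cells hold it or how much each holds. After thinning to 3000 UMIs per cell, which left 6696, 7756 and 8403 cells, Irf8 was found in 12.3% of stimulated WT and 5.32% of IFT20-KO cells. At least 3 Irf8 UMIs were found in 0.993% and 0.202%. Both the share of cells with Irf8 and the share with several Irf8 UMIs were lower in the IFT20-KO library. Most cells held 0 Irf8 UMIs at this depth (87.7% and 94.7%), where a lower mean lowers both shares. Cells with 1 Irf8 UMI were 9.48% and 4.50%, and cells with 2 were 1.83% and 0.619%. Whether fewer cells held Irf8 or each held less was not tested. Irf4 counts were alike in the stimulated libraries, with 0 UMIs in 74.1% and 73.0% of cells, 1 in 20.0% and 20.8%, 2 in 4.49% and 4.74%, and at least 3 in 1.39% and 1.50%.

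Irf8 was not found more often in cells with Irf4. In stimulated WT cells it was detected in 12.3% of the 2011 cells with an Irf4 UMI and in 12.3% of the 5745 without. In IFT20-KO cells the shares were 5.15% and 5.38%. Irf1 was likewise found in 25.0% and 26.0% of stimulated WT cells with and without Irf4, and in 17.3% and 18.0% of IFT20-KO cells.

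Markers of other cells were read beside Irf8, which dendritic and B cells also make. The dendritic cell list summed to 118, 169 and 151 CPM, mostly Bst2 and Cd74, the B cell list to 286, 144 and 154, nearly all Ighm, and the myeloid list to 4.12, 0.291 and 0.207. Bst2 and Cd74 were detected in 61.6% and 22.8% of stimulated WT cells, so neither can set a cell apart here. Cells with a UMI of any other marker of these lists or of the natural killer or CD8 cell and erythroid lists, leaving out Bst2, Cd74, Batf3, Nkg7, Klrk1, Ighm and Cd8b1, were 286, 165 and 215 and held 2.27%, 2.76% and 3.38% of the Irf8 UMIs. They made up 3.56%, 1.67% and 1.54% of cells. Irf8 in them was at 1.81 (0.372 to 5.28), 75.0 (64.5 to 86.7) and 31.8 (25.1 to 39.7) CPM. In the remaining cells Irf8 was at 3.64, 56.3 and 21.2 CPM, so in both stimulated libraries it was higher in the cells with such a marker. Many of the remaining cells still held Bst2, Cd74 or Ighm, and whether dendritic or B cells added to the Irf8 level was not tested beyond this.

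Within a library, cells were split by a UMI of a state marker at 3000 UMIs per cell, which describes the cells and has no test. In unstimulated cells, the 323 cells with Ifit1 or Ifit3, a pair of genes that type I interferon switches on, had Irf7 at 225 CPM against 49.3 in the other 6373 cells (log2 ratio 2.19, 1.97 to 2.40). Irf9 was at 138 against 60.9 CPM in the same cells, a ratio of 1.18 (0.91 to 1.44). Irf2 was at 185 against 124 and Irf1 at 254 against 187 CPM, while Irf3 was at 59.9 against 56.0 CPM with an interval of its ratio that included 0. The median depths of the 2 sets were 4780 and 4916 UMIs.

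In stimulated WT cells, the 95 cells with Ifit1 or Ifit3 had Irf1 at 323 against 118 CPM (ratio 1.46, 1.14 to 1.76) and Irf8 at 109 against 54.6 CPM (1.00, 0.43 to 1.51). Irf2 was at 119 against 63.8 CPM (0.90, 0.37 to 1.39). Irf4 was lower in those cells, at 56.1 against 113 CPM (−1.01, −1.82 to −0.31). Their median depth before thinning was 9431 UMIs against 13875 in the others. In the IFT20-KO library the set held 52 cells, with Irf2 at 167 against 72.1 CPM (1.21, 0.59 to 1.76). Irf1 was at 122 against 73.2 CPM and Irf4 at 70.5 against 118 CPM, with intervals of the ratios that included 0. These cells held 1 Irf8 UMI (−1.75, −7.06 to 0.73), and the difference between libraries was not tested.

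Cells with a UMI of Foxp3, the factor that defines regulatory T cells, were 219 of the unstimulated cells. They held Irf5 at 18.3 CPM against 1.70 in the other 6477 cells, on 12 and 33 UMIs (ratio 3.43, 2.34 to 4.42). Irf8 was at 13.7 against 2.78 CPM on 9 and 54 UMIs (2.30, 1.10 to 3.33). In the 164 unstimulated cells with Il2ra, Irf8 was at 20.3 against 2.70 CPM (2.91, 1.77 to 3.90). The low Irf5 and Irf8 counts before stimulation were thus unevenly spread over the cells. In IFT20-KO cells the 110 cells with Foxp3 had Irf1 at 133 against 72.7 CPM (0.87, 0.41 to 1.31). The same split gave 0.25 (−0.37 to 0.80) in stimulated and 0.10 (−0.16 to 0.35) in unstimulated WT cells, intervals that included 0, and the difference between libraries was not tested.

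Il2ra encodes the interleukin-2 receptor alpha chain, an activation marker. In stimulated WT cells the 2852 cells with an Il2ra UMI had Irf8 at 70.2 against 46.5 CPM (0.60) and Irf4 at 128 against 103 (0.31) in the 4904 others. In IFT20-KO cells the values were 25.3 against 19.0 CPM for Irf8 (0.42) and 134 against 107 for Irf4 (0.33). The 402 IFT20-KO cells with Mki67, a proliferation marker, had Irf1 at 115 against 71.4 CPM (0.69, 0.43 to 0.94), at median depths of 4472.5 and 11041 UMIs. Among all IFT20-KO cells, Irf1 was at 127 CPM under 4000 UMIs, 113 from 4000 to 8000 and 58.1 from 8000 to 16000. The Mki67 split in that library is therefore also a split by depth, and the part of each was not tested. In stimulated WT the 128 cells with Mki67 had Irf1 at 130.2 against 120 CPM (0.12, −0.31 to 0.52). Their median depths were 16330.5 and 13788.5 UMIs, so the 2 libraries are not alike in this split.

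**Figure D4:**
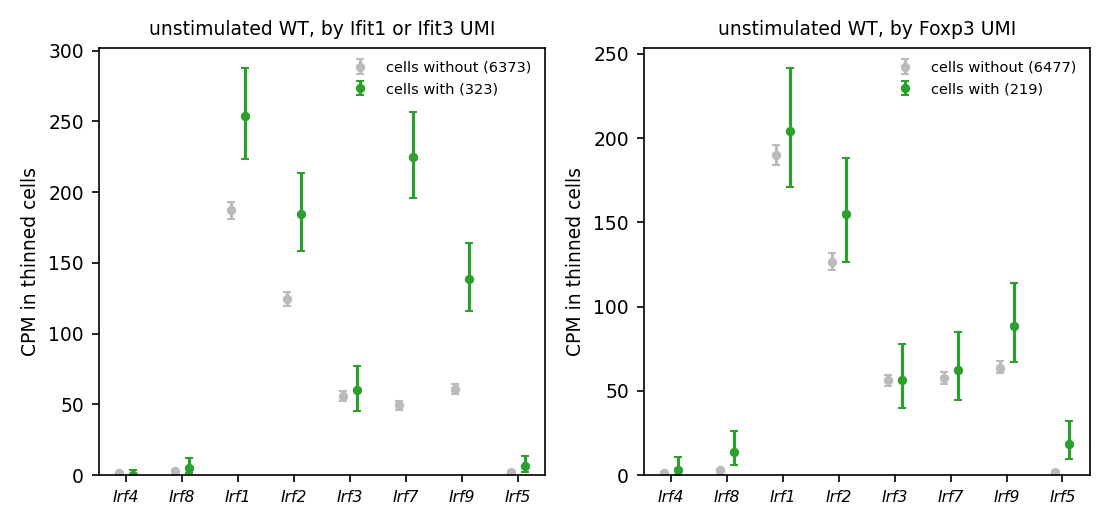
CPM of each member in unstimulated WT cells with (green) and without (grey) a UMI of Ifit1 or Ifit3 (left) and of Foxp3 (right), at 3000 UMIs per cell, with 95% exact Poisson intervals. The widest gap on the left is that of Irf7, at 225 against 49.3 CPM, and on the right Irf5 is at 18.3 against 1.70 CPM.

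The genes around the IRFs were read from lists by role. The shares over all genes to set beside each list were 19.3% higher and 23% lower with stimulation, and 32.1% higher and 6.66% lower in IFT20-KO cells. Among upstream sensors and kinases, 0 of 12 genes rose and 3 fell with stimulation (median ratio −0.55), and in IFT20-KO cells 4 rose and 0 fell (median 0.15), so that the 3 lower and 4 higher were near the shares of all genes. Ddx58, which encodes the RNA sensor RIG-I, went from 62.7 to 2.48 CPM with stimulation (−4.66), and Ikbke, a kinase for IRF3 and IRF7, from 80.9 to 21.1 (−1.94). Of the interferons, Ifnb1, Ifna1, Ifna2, Ifna4 and Ifne were at 0 UMIs in all libraries. Ifng had 8, 347 and 31 UMIs, in only 7, 36 and 14 cells, with a ratio of 3.78 with stimulation and −3.35 (−3.93 to −2.82) in IFT20-KO cells. A single stimulated WT cell held 170 of the 347 Ifng UMIs, and without it the ratios were 2.81 and −2.38; UMIs of 1 cell are not independent, so these intervals are too narrow.

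Among interferon receptors and STATs, 0 of 10 genes rose and 5 fell with stimulation (median −1.02). The fall took in Ifngr1 (−2.34), Ifnar1 (−1.41) and Stat2 (−1.92), the partner of IRF9. In IFT20-KO cells 3 rose, among them Ifngr1 (0.40), and 2 fell, among them Stat3 (−0.36). Of the DNA-binding partners of IRF4 and IRF8, 1 of 11 rose (Batf3, on 24 UMIs against 1) and 3 fell with stimulation, among them Jun (−3.05), and in IFT20-KO cells 1 of 10 rose (Ets1, 0.35) and 0 fell. Batf, the main partner of IRF4 in T cells, was at 46.4, 46.7 and 38.0 CPM in the 3 libraries.

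Cofactors and inhibitors included 2 genes that rose and 6 that fell of 11 with stimulation (median −1.10), beside 19.3% and 23% of all genes, with Fkbp4, an IRF4-binding immunophilin, at 1.32 and Socs3 at −3.22. In IFT20-KO cells 2 rose and 2 fell (median 0.015), beside 32.1% and 6.66% of all genes, the latter being Usp18 (−0.66), a brake on type I interferon signalling, and Socs1 (−0.34), an inhibitor of JAK kinases.

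The type I interferon genes fell almost as a whole with stimulation, 17 of 20 with 0 higher and a median of −3.24. Rtp4 went from 37.1 to 0.402 CPM (−6.53) and Isg15 from 52.6 to 10.4 (−2.34), whereas Bst2 was at 0.26. In IFT20-KO cells 10 of 17 were lower by over 0.3 and 5 higher (median −0.52), beside 6.66% and 32.1% of all genes. The interval of Oas1a, among the 10, included 0. Isg15 was at −1.30 and Zbp1 at −0.93, and of the 5 higher, Mx1 (28 against 13 UMIs), Ifit2 (0.43), Oasl1, Oas2 and Cmpk2, the intervals of the last 3 included 0.

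The genes linked to interferon-gamma and IRF1 did not move together with stimulation, with 3 of 18 higher, 2 lower and a median of −0.34. Gbp2, a guanylate-binding protein, rose from 52.0 to 276 CPM (2.41) and Gbp5 from 5.92 to 40.8 (2.78), while Gbp7 fell by 2.05 on the log2 scale. In IFT20-KO cells 14 of 19 were lower and 0 higher (median −0.69), beside 6.66% and 32.1% of all genes, and the intervals of Cxcl10 and Ciita, both among the 14, included 0. Iigp1, an immunity-related GTPase, went from 19.1 to 4.41 CPM (−2.11), Gbp2 from 276 to 120 (−1.20), Irgm1 from 20.7 to 8.88 (−1.22) and Psmb9, an immunoproteasome subunit, from 179 to 111 (−0.69). Gbp5 was at −0.034.

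Of the T cell genes linked to IRF4, 6 of 14 rose and 6 fell with stimulation (19.3% and 23% of all genes). Hk2, hexokinase of glycolysis, rose by 6.11 and Myc by 1.81, and Tcf7 and Klf2, genes of resting T cells, fell (−2.51 and −3.30). In IFT20-KO cells 2 of 15 rose, among them Ccr7 (0.36), and 7 fell (32.1% and 6.66% of all genes), with intervals including 0 for Prdm1 and Il10. Il4 went from 145 to 14 UMIs, Il17a from 46 to 0 UMIs and Gata3 from 13.9 to 10.1 CPM (−0.46). A count of 0 does not show absence, and for the Il17a ratio it was set to 3. How many cells held the Il4 and Il17a UMIs is not given here.

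**Figure D5:**
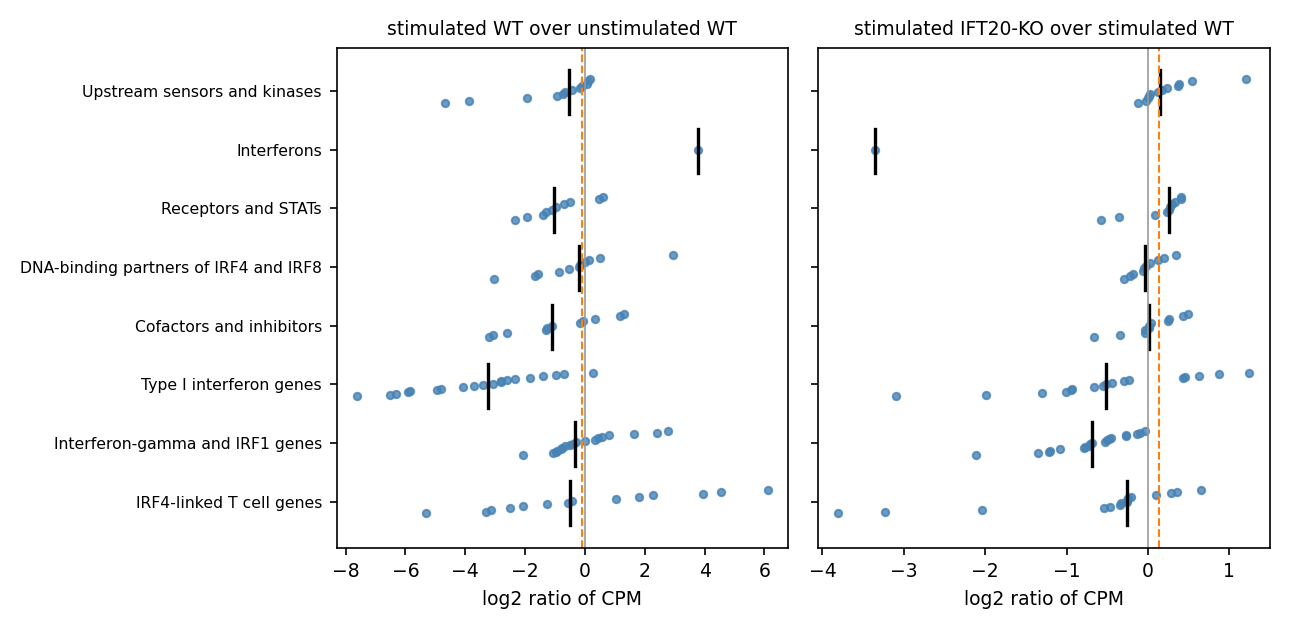
Log2 ratios of the genes of each list with at least 10 UMIs in the 2 comparisons, 1 point per gene, with a black bar at the list's median and an orange dashed line at the median of all genes. The type I interferon genes have a median of −3.24 with stimulation, and the interferon-gamma and IRF1 genes one of −0.69 in IFT20-KO cells.

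Likeness in pattern was measured as the distance between the pair of log2 ratios of a gene and those of a member, over 3 libraries and 7516 genes with at least 10 CPM in 1 library or more, antigen receptor, mitochondrial and unnamed gene models left out. Nearest to Irf4 were Bhlhe40, Orc1 and Alcam (0.018, 0.12 and 0.14). Nearest to Irf1 were Irgm2, Zbp1 and Ngdn (0.046, 0.19 and 0.28), and the first 2 of these are in the interferon lists above. Irf9 had Lgals3bp, Kctd2 and Parp9 within 0.092.

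Irf8 had no close neighbour: Angptl2, Tpi1 and Odc1 were nearest at distances of 1.09, 1.14 and 1.15, with a log2 ratio in IFT20-KO cells between −0.51 and −0.26 where that of Irf8 was −1.41. The nearest to Irf7 were Armc3, Slpi and Pde2a at 0.40 to 0.62. Irf2, Irf3 and Irf5 lay in dense parts of the distribution, with Traf3ip3, Pias4 and Krtcap3 nearest at 0.0095, 0.0044 and 0.031.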

How the data were processed

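Single-cell RNA was measured in 3 libraries, 1 per group. The authors aligned the reads to mm10, called barcodes and deposited whole-number UMI counts per gene and barcode, without normalization; per the file headers the software was Cell Ranger 3.1.0. The labels name a 5′ kit and the study's methods a 3′ kit, and the strand setting was not given in the sources used here.

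Everything else was computed from those counts with Python 3.11.15, numpy 2.4.6, scipy 1.17.1, pandas 2.3.3 and matplotlib 3.10.9. A barcode was kept if over 200 genes were detected and mitochondrial genes held under 15% of its UMIs; only the second criterion removed any. UMIs were summed per library and scaled to CPM. Intervals were exact Poisson for CPM, the exact binomial interval of the UMIs for ratios and Clopper-Pearson for shares. A gene counted as past the fold at 1 log2 for stimulation and 0.3 log2 for IFT20-KO, among genes with at least 10 UMIs over the compared pair, and a count of 0 was set to 3. Ratio and interval code was tested on simulated data. No doublet caller was run; leaving out the 5% of cells with most UMIs was an alternative. Cells were thinned to 1400 or 3000 UMIs, which left out 801, 421 and 0, or 1335, 2147 and 5517 cells in the libraries' usual order.

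Every member is named, with the extremes and textbook members of each role list and the 3 nearest genes by pattern. Other genes of a list were named after their values were seen. The members, lists and tests were chosen with earlier results of these data known. Promoters came from RefSeq (8 of 8 members matched, 11 windows). Some genes of the lists and markers are not reported here.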

Additional observations from a re-analysis of the deposited data

How the results depend on the processing

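No paired analysis was possible because each group has 1 library. With 10 alternatives, 48 of 80 member ratios for stimulation stayed within the counting interval, 31 moved beyond it, and 1 past the fold changed sign. A change of sign was seen in 7 of the 80, in Irf1, Irf2, Irf3 and Irf5, of which only Irf2 (0.23 in UMIs per cell) was past the fold. With 11 alternatives for IFT20-KO, 49 of 88 stayed and 39 moved. A change of sign was seen in 11 of the 88, in Irf2, Irf3, Irf4 and Irf5, none of them past the fold by CPM. In UMIs per cell 1 member was lower by over 2-fold with stimulation and 3 were higher, among them Irf3 (1.16). In IFT20-KO cells 8 were past the fold per cell, 8 of them lower. On that scale 58.5% of all genes were higher and 6.40% lower with stimulation. In IFT20-KO cells 70.3% of all genes were lower and 4.86% higher per cell, so most genes shared the direction of the 8 members. In cells of 4000 to 8000 UMIs, 3 members passed 2-fold with stimulation, 1 of them lower. The share of all genes past 2-fold in that window is not given here. Leaving out cells holding other markers (Ighm and Cd8b1 included, Bst2, Cd74, Batf3, Nkg7 and Klrk1 not) removed 66.1%, 61.9% and 52.0% of cells. In the remaining cells 1 member was higher in IFT20-KO cells (Irf2, 0.33). The all-gene median was itself 0.22 there, and relative to it Irf2 stood at 0.12. The share of all genes past the fold in that setting is not given here. Median-ratio scaling moved the all-gene median by 0.17 for stimulation and −0.17 for IFT20-KO, and UMIs per cell by 1.35 and −0.63. Genes lower in IFT20-KO cells were 3.89% with at least 50 UMIs, 13.9% with at least 1 and 6.66% with 10. Over the alternatives the IFT20-KO ratio ran from −2.03 to −1.23 for Irf8, from −1.37 to −0.51 for Irf1, from −1.86 to −0.98 for Irf7 and from −1.07 to −0.32 for Irf9. For stimulation it ran from 5.66 to 7.39 for Irf4, from 3.60 to 5.35 for Irf8 and from −5.81 to −3.06 for Irf7. Leaving out cells with other markers less Ighm and Cd8b1, keeping stimulated cells of at least 8000 UMIs, the Ifit1 or Ifit3 split and leaving out 1 cell for Ifng were chosen after seeing the data. The cause of these differences was not tested. With 1 library per group, the spread between animals is unknown, and group cannot be told apart from library and depth.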
